A study of Homo sapiens with 10 samples.

Results

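The genes described here were 10 chemokine ligands, CXCL14, CXCL1, CXCL2, CXCL3, CXCL8, CXCL10, CXCL11, CXCL16, CCL20 and CCL28, taken by gene symbol from the 58735 genes of a table of RNAseq counts. CXCL14 was put on the list because of its large rise in both DUSP1-/+ clones, so its difference from the control is given as a description with no test. The study asked what the loss of DUSP1, a phosphatase that switches off the MAP kinases ERK, JNK and p38, changes in salivary gland squamous cell carcinoma. RNA was measured in A253, a human cell line established from such a tumor and grown in DMEM with serum. Control cells carried Cas9 and an sgRNA against dTomato, a fluorescent protein gene that human cells lack. Cl1 and Cl10 carried Cas9 and a pair of sgRNAs that cut in the introns on either side of DUSP1 exon 2. Both were clones with a heterozygous deletion of that exon, and the study chose them because it found no DUSP1 protein in them. Each group had 2 libraries. Each mutant group was a single clone, so a difference between a clone and the control cannot be told apart from a difference that the founder cell of that clone already carried. Whether the libraries of a group came from separate cultures was not given in the sources used here, and p-values measure the spread between these libraries, which may be technical.

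Chemokines are small secreted proteins that bind G protein-coupled receptors on leukocytes and other cells and direct their movement. CXCL1, CXCL2, CXCL3 and CXCL8 carry the ELR motif and act on neutrophils through CXCR2, and CXCL8 also acts through CXCR1. CXCL10 and CXCL11 are induced by interferons and recruit activated T cells through CXCR3. CXCL16, the ligand of CXCR6, is made with a transmembrane stalk, CCL20 binds CCR6, and CCL28 is a mucosal chemokine of glandular epithelium that binds CCR10 and CCR3. CXCL14 is made constitutively by many epithelia, including skin and oral mucosa. The promoters of the ELR chemokines and of CXCL10 and CXCL11 are textbook targets of NF-kappaB, and AP-1 is a transcription factor family downstream of the MAP kinases.

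The promoters of 7 of these genes are printed because the genes differ in the exact motif matches they hold and in how their RNA moved. Each line is the 150 bases before the RefSeq start on GRCh38.p14, read 5′ to 3′ on the gene's strand, with matches to the kappaB consensus or to AP-1 (TGANTCA) in capitals. They lie at chr5:135578992-135579141 (minus strand), chr4:73869243-73869392 (plus), chr4:74099196-74099345 (minus), chr4:74038690-74038839 (minus), chr4:73740419-73740568 (plus), chr4:76023498-76023647 (minus) and chr4:76036071-76036220 (minus).
CXCL14: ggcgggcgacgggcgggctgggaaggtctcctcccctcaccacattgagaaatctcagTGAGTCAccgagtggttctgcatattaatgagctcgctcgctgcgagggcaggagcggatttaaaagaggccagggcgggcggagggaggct 
CXCL1: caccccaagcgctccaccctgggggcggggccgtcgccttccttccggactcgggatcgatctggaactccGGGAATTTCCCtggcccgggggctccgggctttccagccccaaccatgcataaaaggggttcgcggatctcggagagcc 
CXCL2: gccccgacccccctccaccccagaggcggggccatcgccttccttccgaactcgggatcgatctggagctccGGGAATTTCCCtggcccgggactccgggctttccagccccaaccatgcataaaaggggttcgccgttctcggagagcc 
CXCL3: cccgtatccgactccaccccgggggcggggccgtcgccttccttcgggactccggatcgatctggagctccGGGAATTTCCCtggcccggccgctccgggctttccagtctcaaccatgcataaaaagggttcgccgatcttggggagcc 
CXCL8: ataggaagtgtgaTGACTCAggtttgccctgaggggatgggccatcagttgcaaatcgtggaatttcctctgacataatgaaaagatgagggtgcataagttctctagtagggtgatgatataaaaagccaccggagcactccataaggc 
CXCL10: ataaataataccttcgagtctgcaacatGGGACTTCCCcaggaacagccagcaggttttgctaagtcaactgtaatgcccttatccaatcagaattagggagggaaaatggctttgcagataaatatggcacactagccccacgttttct 
CXCL11: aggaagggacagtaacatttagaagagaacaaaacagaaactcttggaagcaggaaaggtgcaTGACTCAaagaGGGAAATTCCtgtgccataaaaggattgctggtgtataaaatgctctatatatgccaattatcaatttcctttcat

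Of the 10 genes, 9 had an entry in the RefSeq promoter table. Both strands of the 300-base windows, which run across the start, were searched for 4 motifs. These were the kappaB consensus (GGGRNWYYCC), AP-1, the interferon-stimulated response element (ISRE) and a TATA box (TATAAA). CXCL14 held 1 AP-1 match at positions -92 to -86 from the start and no match to the kappaB consensus. CXCL1, CXCL2 and CXCL3 each held 1 kappaB element, at positions -79 to -69, -78 to -68 and -79 to -69, that matched on both strands and is counted once here because the matches overlap. In CXCL10, kappaB matches lay at -177 to -168 and -122 to -113, and an ISRE match at -221 to -212. CXCL11 held AP-1 at -87 to -81, kappaB at -76 to -67 and TATA at -42 to -37, and CXCL8 held AP-1 at -137 to -131 and TATA at -31 to -26. CXCL8 had no exact kappaB match, but its printed bases hold tggaatttcc, which differs from the consensus only in the first letter. The search passes over such near matches, so a missing match does not mean a missing kappaB element. The CCL20 window had a kappaB match at -79 to -70 on the other strand and a TATA match at -29 to -24, and the CCL28 window had none of the 4 motifs. Among all 35116 promoters of the table, 5.91% held the kappaB consensus, 7.71% AP-1, 3.57% the ISRE and 11.5% the TATA box. In the printed 150 bases, CXCL1 was identical to CXCL2 at 88.8% and to CXCL3 at 88.1% of aligned positions, CXCL2 and CXCL3 at 86.3%, and CXCL1 and CXCL8 at 45.5%. A match is a run of letters and was not measured as a binding site.

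The libraries held between 47016495 and 70986593 counts. Values below are normalised counts, that is, counts divided by TMM-scaled library size and brought to the mean library total. DUSP1, the targeted gene, stood at 744.4 and 635.4 in the control libraries, 304.0 and 353.7 in Cl1, and 495.2 and 415.2 in Cl10. It was lower in both clones than in the control, with a log2 difference of -1.07 ± 0.15 (SE) for Cl1 (adjusted p = 0.000292) and of -0.59 ± 0.13 for Cl10 (adjusted p = 0.0113, edgeR quasi-likelihood test, as for every adjusted p below). Counts cover the whole gene, so RNA that lacks exon 2 may be counted too. The 8 squamous epithelial markers, among them KRT5, KRT14 and TP63, summed to 696725 to 711431 normalised counts in the control, 806607 to 816166 in Cl1 and 698504 to 732542 in Cl10, sums that KRT5 and KRT14 dominated. In Cl1, 1 of the 8 passed as higher and 1 as lower, and in Cl10, 1 as higher and 2 as lower, of which 1 was called. Among the 8, SOX2 stood at 4614 and 4999 in the control and 1437 and 1445 in Cl10, and CDH1 at 21364 and 18553 in the control and 36879 and 34454 in Cl1. Of 10 leukocyte markers, 6 were at or under 3 counts in both control libraries and 4 in each clone. The leukocyte sum was 1819 to 1980 in the control, 1846 to 1981 in Cl1 and 6249 to 6372 in Cl10, where NCAM1 alone gave 5415 and 5623. PTPRC (CD45), the defining marker, was at most 11.95 in any library, and MS4A1 and FCGR3A were at or near 0. CD14 was expressed at 350.2 and 397.8 in the control, 777.8 and 580.9 in Cl1, and 558.0 and 490.5 in Cl10, and ITGAM at 109.1 and 111.8, 172.5 and 193.3, and 237.8 and 233.3. Of 4 leukocyte markers tested, 2 passed as higher and 1 as lower in Cl1, and 3 as higher in Cl10, of which 2 were called. The 6 fibroblast markers summed to 2549 to 2866 in the control, 2631 to 2802 in Cl1 and 1715 to 1811 in Cl10, with COL1A2 and LUM at or near 0. COL1A1 (1772 and 1540 in the control, 1033 and 1042 in Cl10) and COL3A1 (1087 and 1004, 672.0 and 764.5) carried that sum. Of 2 fibroblast markers tested, 0 passed in Cl1 and 2 passed as lower in Cl10, of which 0 were called. The 5 endothelial markers summed to 159.1 to 254.6, 341.5 to 470.8 and 201.0 to 255.4, with PECAM1 at or near 0 and KDR at 0 throughout. VWF carried that sum, TEK went from 0.846 and 2.15 in the control to 14.5 and 24.6 in Cl1 and 16.7 and 16.8 in Cl10, and CDH5 from 5.92 and 5.38 to 40.3 and 14.4 in Cl10. In Cl1, 2 endothelial markers were tested and 1 was called higher, and in Cl10, 3 were tested and 2 were called higher. TEK, at 1 and 2 raw counts in the control, had enough counts only through the clone libraries, and CDH5 only through the Cl10 libraries. Over all genes tested, 25.1% passed (adjusted p under 0.05) and 7.55% were called (log2 fold change also above 1 in size) in Cl1. In Cl10, 42.5% passed and 13.4% were called. These shares stand beside every count of markers given here. The part of these markers in the ligand results was not tested. In such bulk RNA, more cells that express a gene and more RNA per cell cannot be told apart.

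CXCL14 went from one ligand among several in control cells to the leading chemokine transcript of both clones. It was counted at 1033 and 1011 in the control libraries, 28199 and 35525 in Cl1, and 71037 and 62829 in Cl10. The 3 groups did not overlap, and the lowest clone library lay far above both control libraries. The log2 difference from the control was 4.96 ± 0.16 (SE) in Cl1, a fold of 31.2, and 6.04 ± 0.12 in Cl10, a fold of 65.7. Between the clones, which is a contrast not used to choose the gene, CXCL14 was higher in Cl10 than in Cl1 by 1.07 ± 0.10 (adjusted p = 2.3e-06). The difference fell under the limit of 1 for a call, at 0.91 without Cl1 replicate 1 and at 0.99 without Cl10 replicate 1. A fit without 1 library leaves a single library in that group. Its adjusted p, here and below, holds the spread of the other group only. Whether a gene passed or was lost in such a fit is therefore a description. CXCL14 took 0.00183% and 0.00177% of all counts in the control, 0.0465% and 0.0609% in Cl1 and 0.125% and 0.112% in Cl10.

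**Figure D1:**
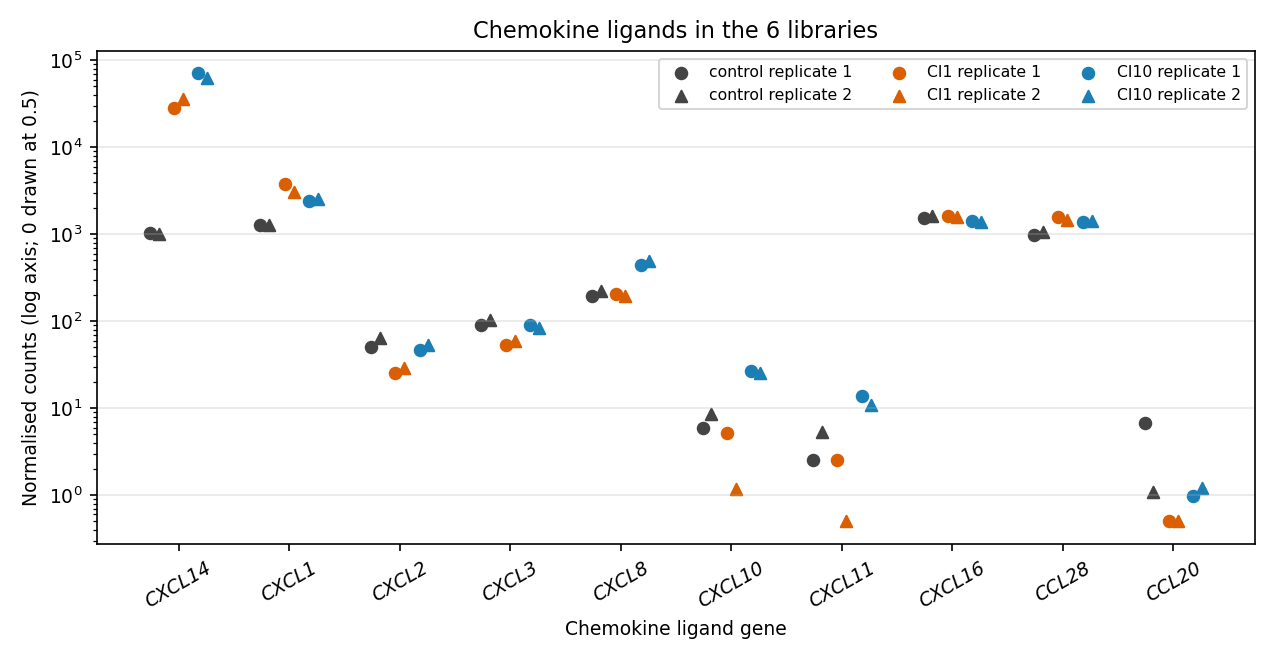
Normalised counts (log axis) of the 10 chemokine ligands in each of the 6 libraries, with circles for replicate 1 and triangles for replicate 2, and counts of 0 drawn at 0.5. CXCL14 lay at 1033 and 1011 in the control and between 28199 and 71037 in the clones, whereas CXCL16 stayed between 1378 and 1618 in all libraries.

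Levels were compared between genes as reads per kilobase of exon scaled to library size (RPKM). In control cells the order was CXCL1 at 16.3, CCL5 at 10.1, CXCL16 at 9.82 and CXCL14 at 8.99, as means of 2 libraries. CCL5 (9.93 and 10.2), CXCL16 (9.58 and 10.1) and CXCL14 (8.89 and 9.09) were close. CCL5 and CXCL16 overlapped between libraries, and CXCL14 lay just below both. In Cl1, CXCL14 was first with 280, ahead of CXCL1 with 43.7, CXCL16 with 9.88, CCL5 with 9.26 and CCL28 with 5.79. In Cl10, CXCL14 was first with 589, ahead of CXCL1 with 31.4, CXCL16 with 8.69, CCL28 with 5.43 and CCL5 with 3.53. Among all genes ranked by RPKM, CXCL14 was at places 4923 and 4997 in the control libraries, 130 and 94 in Cl1, and 36 and 40 in Cl10. Of the counts of all chemokine ligands, it made up 15.6% and 14.7% in the control, 76.8% and 82.4% in Cl1, and 91.7% and 90.5% in Cl10.

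**Figure D2:**
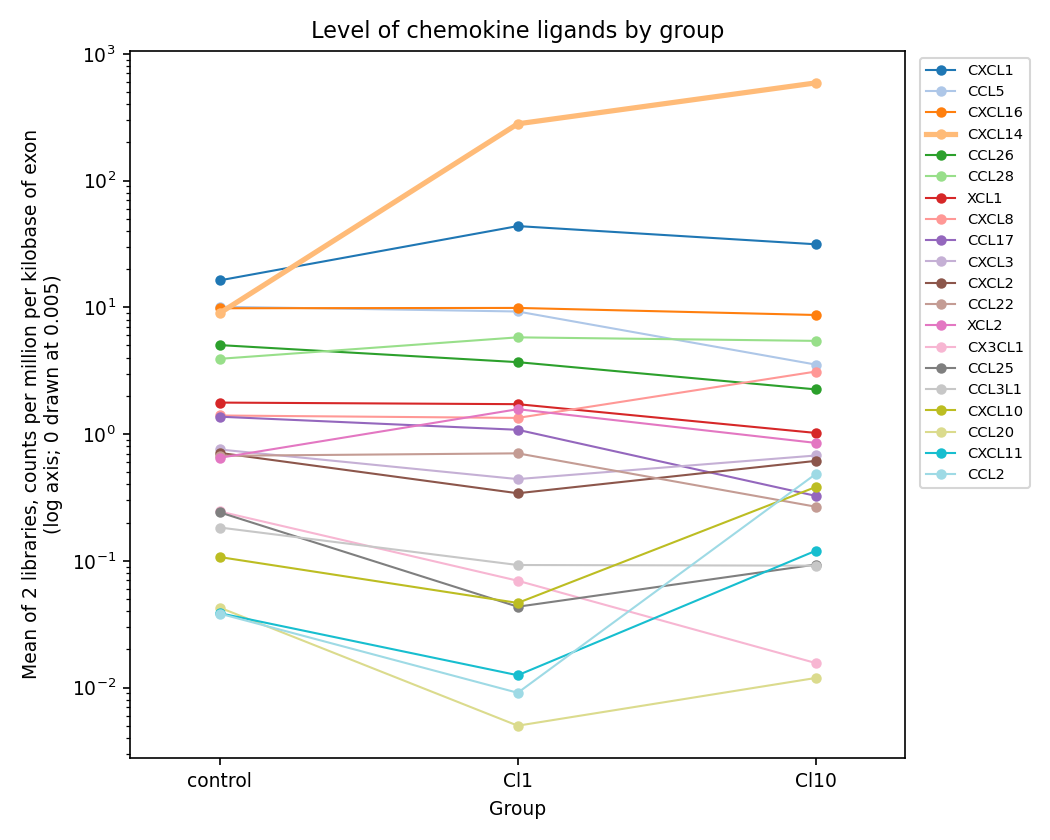
Mean RPKM of 2 libraries (log axis) for the 10 chemokine ligands and 10 other ligands with enough counts to test, in control, Cl1 and Cl10, with one line per gene and 0 drawn at 0.005. CXCL14 moved from the 4th place at 8.99 in the control to the first at 280 and 589, while CX3CL1 fell from 0.245 to 0.0156 in Cl10.

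Read against all genes, the ligands did not move as a block. A gene passed at adjusted p below 0.05 over all genes tested and was called when its log2 fold change was also above 1 in size. CXCL14 is left out of the counts against the control, since it was chosen for that difference. In Cl1 against the control, 6 of the other 9 genes had enough counts to test, and 1 was called higher (CXCL1) and 1 lower (CXCL2). Over all 20153 genes tested in that comparison, 7.55% were called, 4.27% higher and 3.27% lower. In Cl10 against the control, 8 were tested and 2 were called higher (CXCL8 and CXCL10) and 0 lower, beside 13.4% of 19875 genes called, 5.98% higher and 7.45% lower. In Cl10 against Cl1, 9 were tested and 4 were called higher (CXCL14, CXCL8, CXCL10 and CXCL11), beside 10.8% of 19818 genes called, 4.48% higher and 6.3% lower. With no limit on the fold, 2 passed as higher and 2 as lower in Cl1, beside 25.1% of all genes (12.4% higher, 12.8% lower). In Cl10, 4 passed as higher and 0 as lower, beside 42.5% of all genes (20.6% higher, 21.8% lower). Between the clones, 6 passed as higher in Cl10 and 2 as lower, beside 49% of all genes (24.9% higher, 24.1% lower). CXCL10 and CXCL11 had enough counts to be tested only through the Cl10 libraries, where they were high, so their calls are no support for a direction of the group. Both clones were compared with the same control libraries.

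Of the neutrophil-attracting ELR ligands, CXCL1 was the most abundant and was higher in both clones. It was counted at 1287 and 1272 in the control, 3777 and 3076 in Cl1, and 2410 and 2517 in Cl10. The groups did not overlap, and Cl1 was the highest. The log2 difference from the control was 1.42 ± 0.12 for Cl1 (adjusted p = 6.42e-06) and 0.95 ± 0.08 for Cl10 (adjusted p = 0.000223), the second just under the limit for a call, and the Cl10 minus Cl1 difference was -0.48 ± 0.08 (adjusted p = 0.00049).

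CXCL2 and CXCL3, close paralogues of CXCL1 with nearly the same printed promoter, did not follow it. CXCL2 was counted at 50.8 and 63.4 in the control, 25.6 and 29.3 in Cl1, and 46.2 and 52.6 in Cl10. CXCL3 was counted at 89.7 and 103.2 in the control, 52.9 and 59.7 in Cl1, and 90.4 and 82.6 in Cl10. Both were lowest in the Cl1 libraries, and the control and Cl10 libraries overlapped for both. In Cl1, CXCL2 fell by 1.06 ± 0.32 (adjusted p = 0.0279) and CXCL3 fell by 0.78 ± 0.25 (adjusted p = 0.0361) on the log2 scale. Their log2 fold changes in Cl10 were -0.20 ± 0.25 (adjusted p = 0.557) and -0.15 ± 0.20 (adjusted p = 0.586). Between the clones, they were higher in Cl10 by 0.86 ± 0.31 (adjusted p = 0.0357) and 0.63 ± 0.24 (adjusted p = 0.0415). These results rested on few counts. In Cl1 against the control they were lost with DESeq2 (adjusted p = 0.112 and 0.123) and when 1 of 3 libraries was left out, namely control replicate 2 (0.103 and 0.102), Cl1 replicate 1 (0.15 and 0.187) or Cl1 replicate 2 (0.0637 and 0.0772). Between the clones they were lost with DESeq2 (adjusted p = 0.191 for both), without Cl1 replicate 1 (0.122 and 0.132), without Cl10 replicate 1 (0.0799 and 0.196) and without Cl10 replicate 2 (0.171 and 0.0802). CXCL1, CXCL2 and CXCL3 shared 5.33%, 10.1% and 5.26% of the 50-base windows of their transcripts with one another and 0% of the 150-base windows, and how reads that fit several genes were counted was not given in the sources used here.

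CXCL8 (interleukin-8), the ELR ligand that also binds CXCR1, was higher in Cl10. It was counted at 196.3 and 220.4 in the control, 205.8 and 193.3 in Cl1, and 439.2 and 488.1 in Cl10. The control and Cl1 libraries overlapped and both Cl10 libraries lay above them. Against the control, the log2 difference was 1.16 ± 0.13 for Cl10 (adjusted p = 0.000745) and -0.06 ± 0.17 for Cl1 (adjusted p = 0.846), and the test between the clones gave 1.22 ± 0.13 (adjusted p = 7.03e-06). CXCL8 was thus highest in Cl10 and CXCL1 in Cl1, with CXCL1 above CXCL8 in every library.

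The interferon-induced CXCR3 ligands had few counts in the control and in Cl1. Both were higher in Cl10 than in Cl1, and against the control CXCL10 passed and CXCL11 did not. CXCL10 was counted at 5.92 and 8.60 in the control, 5.12 and 1.17 in Cl1, and 26.5 and 25.1 in Cl10. CXCL11 was counted at 2.54 and 5.38 in the control, 2.56 and 0 in Cl1, and 13.8 and 10.8 in Cl10. For both, the Cl10 libraries lay above all 4 others. In Cl10 against the control, CXCL10 rose by 1.86 ± 0.42 on the log2 scale (adjusted p = 0.0117), which was lost with DESeq2 (adjusted p = 0.0625) and without Cl10 replicate 1 (0.0649). For CXCL11 the value was 1.70 ± 0.59 (adjusted p = 0.055). Neither had enough counts for the test of Cl1 against the control. Against Cl1, CXCL10 was higher in Cl10 by 2.92 ± 0.59 (adjusted p = 0.00129), a value that was 4.47 without Cl1 replicate 1 and 2.33 without Cl1 replicate 2, and CXCL11 was higher by 3.08 ± 0.86 (adjusted p = 0.00994). The CXCL11 difference was lost without Cl1 replicate 2, at 2.26 (adjusted p = 0.0852), and could not be given without Cl1 replicate 1, since the other Cl1 library held 0 counts. DESeq2 and the fit without Cl10 replicate 1 gave no result for CXCL11 between the clones. From the raw counts, 23 in the Cl10 libraries and 3 in the Cl1 libraries, the CXCL11 ratio was 8.38. Its exact 95% interval was 2.53 to 43.6, which covers counting error only.

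CXCL16 and CCL28, both well expressed, differed little between groups. CXCL16 was counted at 1540 and 1618 in the control, 1613 and 1564 in Cl1, and 1414 and 1378 in Cl10. Both Cl10 libraries were the lowest of the 6, and control and Cl1 overlapped. Cl1 differed from the control by 0.01 ± 0.11 on the log2 scale (adjusted p = 0.952). Cl10 differed from it by -0.17 ± 0.08 (adjusted p = 0.128), and by -0.22 without control replicate 1. The Cl10 minus Cl1 difference was -0.18 ± 0.07 (adjusted p = 0.0429), a result lost with DESeq2 (0.183), without Cl10 replicate 1 (0.199), without Cl10 replicate 2 (0.313) and with the replicate block (0.0519). CCL28 was counted at 985.5 and 1058 in the control, 1571 and 1444 in Cl1, and 1399 and 1431 in Cl10. Both clones lay above the control, with the Cl10 libraries slightly under those of Cl1, and the log2 differences were 0.56 ± 0.12 for Cl1 (adjusted p = 0.00353), 0.48 ± 0.09 for Cl10 (adjusted p = 0.00486) and -0.09 ± 0.07 between the clones (adjusted p = 0.332). The rise in Cl1 was lost without Cl1 replicate 1 (adjusted p = 0.0605), the one in Cl10 was lost without Cl10 replicate 2 (0.0591), and the difference between the clones passed at -0.16 without Cl1 replicate 2 (0.046).

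CCL20, the ligand of CCR6, was close to the limit of detection. Its raw counts were 8 and 1 in the control, 0 and 0 in Cl1, and 1 and 1 in Cl10. It was not tested in any comparison. A count of 0 in the Cl1 libraries allows up to 0.0423 and 0.0602 CPM (counts scaled to library size), for counting error only, and no fold is given.

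**Figure D3:**
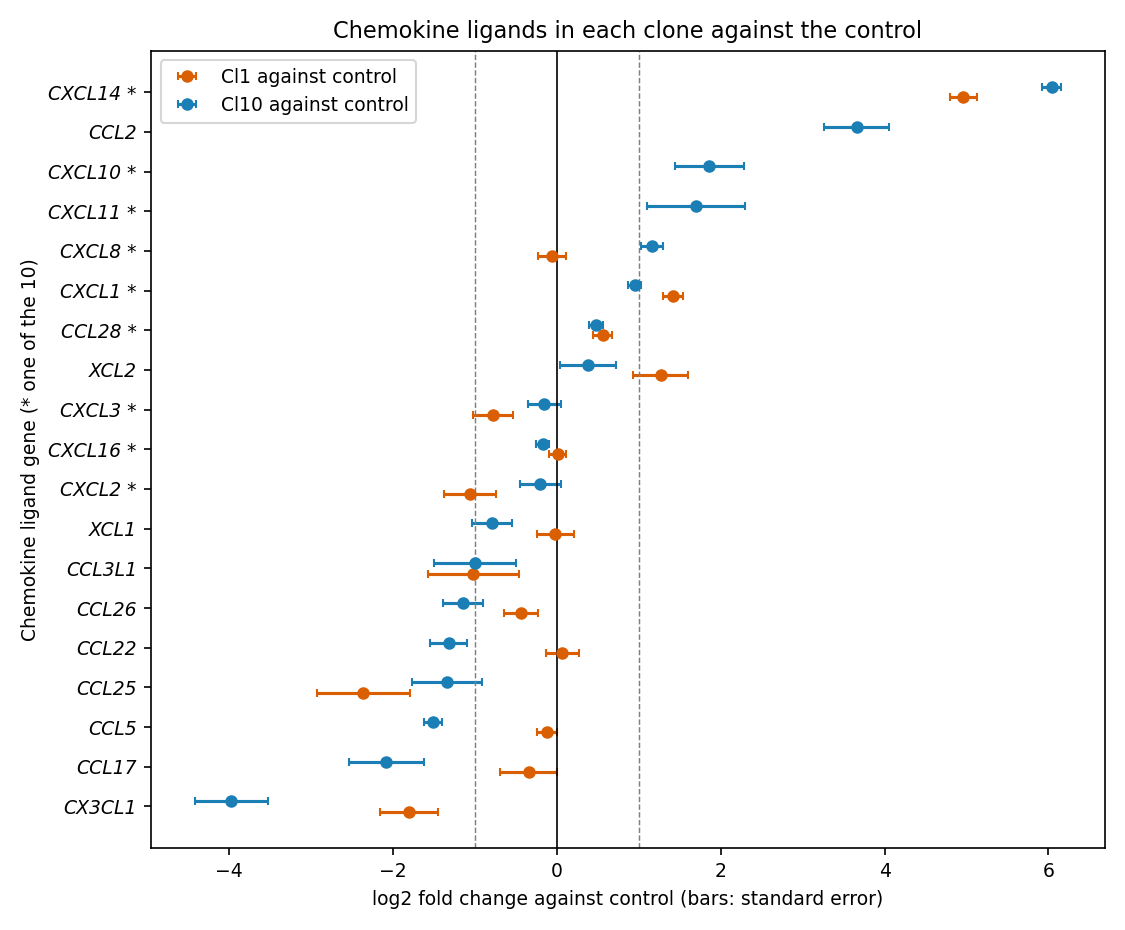
Log2 fold change against the control (x axis, points, with bars of 1 standard error) for the 19 chemokine ligands tested in Cl10, with Cl1 beside it where tested and dashed lines at -1 and 1. CXCL14 lay at 4.96 and 6.04, CXCL8 at -0.06 and 1.16, and CX3CL1 at -1.80 and -3.97, in Cl1 and Cl10.

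The table held 46 of the 47 chemokine ligand genes looked for, and 10 ligands outside the 10 above had enough counts for a test. The comparison of Cl1 tested 9 of these 10 and called 1 higher and 2 lower, beside 4.27% and 3.27% of all genes. All 10 were tested in Cl10, where 1 was called higher and 6 lower, beside 5.98% and 7.45% of all genes. In Cl10, CCL2 had enough counts only through the Cl10 libraries, and CCL3L1, CCL17 and CX3CL1 only through the control libraries. In Cl1, CCL3L1 and CCL25 had enough only through the control libraries. Between the clones, CCL2 and CCL25 had enough only through the Cl10 libraries, and CCL17 and CX3CL1 only through the Cl1 libraries. The counts of calls are therefore a description. Of the 27 ligands not tested in any comparison, 13 had no count in any library, 10 had at most 3 in every library, and 4 had more. CXCL5, CXCL6, CXCL9 and CXCL12 were among those with no count.

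CCL2, a monocyte attractant, was called higher in Cl10. It was counted at 4.23 and 4.30 in the control, 0.854 and 1.17 in Cl1, and 49.1 and 58.6 in Cl10. Both Cl10 libraries stood far above the rest, with a log2 fold change of 3.66 ± 0.40 against the control (adjusted p = 0.000609) and of 5.77 ± 0.59 against Cl1 (adjusted p = 6.11e-06). The Cl1 libraries held 2 raw counts and the Cl10 libraries 99, a ratio of 54.1 with an exact 95% interval of 14.6 to 453, again for counting error only.

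CCL5 (RANTES), a T cell and monocyte attractant, was second in the control and lower in Cl10. It was counted at 801.1 and 779.5 in the control, 728.3 and 725.0 in Cl1, and 266.2 and 288.3 in Cl10. Against the control, the log2 difference was -1.51 ± 0.11 for Cl10 (adjusted p = 0.00014) and -0.12 ± 0.12 for Cl1 (adjusted p = 0.519), and it was -1.39 ± 0.11 between the clones (adjusted p = 5.63e-07). CX3CL1 (fractalkine), which like CXCL16 is made with a membrane stalk, was lower in both clones. Its counts were 105.7 and 62.4 in the control, 29.0 and 18.7 in Cl1, and 5.90 and 4.79 in Cl10. The groups did not overlap, and the log2 difference was -1.80 ± 0.35 for Cl1 (adjusted p = 0.00286) and -3.97 ± 0.45 for Cl10 (adjusted p = 0.000691). Between the clones the difference was -2.17 ± 0.53 (adjusted p = 0.00426), which was lost without Cl1 replicate 1 (0.0769).

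The CCR4 ligands CCL17 and CCL22, which lie beside CX3CL1 on chromosome 16, were lower in Cl10. CCL22 was counted at 110.0 and 116.1 in the control, 117.0 and 119.5 in Cl1, and 50.1 and 39.5 in Cl10. CCL17 was counted at 34.7 and 63.4 in the control, 35.9 and 41.0 in Cl1, and 8.84 and 14.4 in Cl10. Both Cl10 libraries were below the other 4 for both genes, with log2 fold changes of -1.32 ± 0.22 for CCL22 (adjusted p = 0.00343) and -2.08 ± 0.46 for CCL17 (adjusted p = 0.0105). In Cl1 the values were 0.07 ± 0.21 (adjusted p = 0.844) and -0.34 ± 0.35 (adjusted p = 0.52). CCL26 (eotaxin-3), a ligand of CCR3, stood at 165.8 and 240.8, 142.6 and 155.8, and 103.2 and 79.0 in the same order, and fell by 1.14 ± 0.24 in Cl10 (adjusted p = 0.00895), a difference that was under the limit for a call without control replicate 2 (-0.86) or Cl10 replicate 2 (-0.97). CCL25, the ligand of CCR9, fell by 2.36 ± 0.57 in Cl1 (adjusted p = 0.00947) and fell by 1.34 ± 0.43 in Cl10 (adjusted p = 0.0416) from only 21.2 and 34.4 in the control. The Cl1 value was -3.55 without Cl1 replicate 1 and was lost without Cl1 replicate 2 (0.0538), and the Cl10 value was lost with DESeq2 (0.159) and without control replicate 2 (0.214), Cl10 replicate 1 (0.134) or Cl10 replicate 2 (0.119).

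XCL1 and XCL2, near-identical ligands of XCR1, shared 20% and 46.0% of their 50-base windows and 0% of the 150-base windows. Reads that fit both genes cannot be told apart, which leaves their split uncertain to that extent. XCL2 was higher in Cl1 by 1.27 ± 0.34 (adjusted p = 0.0153), lost with DESeq2 (0.069) and without Cl1 replicate 1 (0.097). XCL1 fell in Cl10 by 0.79 ± 0.24 (adjusted p = 0.0347), lost with DESeq2 (0.0688), without control replicate 2 (0.0753) and without Cl10 replicate 2 (0.103). CCL3L1, which GENCODE 44 names CCL3L3 and which shared 9.8% of its 50-base windows with CCL3, had at most 18.3 normalised counts and passed in no comparison.

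The table held 23 chemokine receptor genes. For Cl1, 11 could be tested and 1 was called higher, and for Cl10, 9 could be tested, with 3 called higher and 1 lower, beside 7.55% and 13.4% of all genes called in either direction. Against the control in Cl10, CCR3 and CCRL2 had enough counts only through the Cl10 libraries, and ACKR2 only through the control libraries. These counts of calls are therefore a description. CCR3, a receptor of CCL26 and CCL28, was counted at 10.2 and 12.9 in the control, 52.1 and 52.7 in Cl1, and 44.2 and 23.9 in Cl10. It was higher in both clones, by 2.2 ± 0.37 (adjusted p = 0.00112) and 1.60 ± 0.44 (adjusted p = 0.0248), the second lost with DESeq2 (0.0672) and without Cl10 replicate 1 (0.252). CCRL2, an atypical receptor that binds chemerin, was counted at 8.46 and 11.8 in the control, 11.95 and 17.6 in Cl1, and 70.7 and 63.4 in Cl10, and rose in Cl10 by 2.75 ± 0.33 (adjusted p = 0.000831). CXCR2, the receptor of the ELR ligands, had 11.8 in both control libraries, 17.1 and 7.03 in Cl1, and 23.6 and 40.7 in Cl10. Its rise of 1.43 ± 0.42 in Cl10 (adjusted p = 0.0319) was lost with DESeq2 (0.101) and without Cl10 replicate 2 (0.263). ACKR2, a scavenger of inflammatory CC chemokines, fell in Cl10 by 1.53 ± 0.40 (adjusted p = 0.0204) from 32.1 and 23.7 in the control. That call was lost with DESeq2 (0.11) and without control replicate 1 (0.101), Cl10 replicate 1 (0.0828) or Cl10 replicate 2 (0.0764).

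Between the clones, 10 receptors were tested. CXCR2 and CCRL2 were called higher in Cl10 and CCR7 and CXCR3 lower, beside 4.48% and 6.3% of all genes. The CXCR2 difference was 1.34 and did not pass in every alternative, and that of CCRL2 was 2.22. Neither CCR7 nor CXCR3 was called in a clone against the control. CCR7, the receptor of CCL19 and CCL21, stood at 24.5 and 32.3 in the control, 52.9 and 46.9 in Cl1, and 14.7 and 19.1 in Cl10, with a difference between the clones of -1.57 ± 0.34 (adjusted p = 0.00221). CXCR3, the receptor of CXCL10 and CXCL11, had enough counts for its tests with Cl10 only through the libraries of the other group. It stood at 16.1 and 14.0, 12.8 and 19.9, and 7.86 and 1.20, with a difference between the clones of -1.73 ± 0.67 (adjusted p = 0.0488). That difference was -3.74 without Cl10 replicate 1 and was lost with DESeq2 (0.198), without Cl1 replicate 2 (0.213) and without Cl10 replicate 2 (0.338), and CXCR3 in Cl10 against the control passed without Cl10 replicate 1 at -3.65 (0.0339). A further pair of receptors, chosen after their values were seen, was more abundant. CCR10, the receptor of CCL28, was counted at 1186 and 1254 in the control, 1235 and 1192 in Cl1, and 1095 and 970.3 in Cl10. ACKR3, a scavenger that binds CXCL11, was counted at 593.0 and 577.4, 944.3 and 904.2, and 482.4 and 483.4. As a description, its log2 difference from the control was 0.66 ± 0.12 in Cl1 and -0.27 ± 0.10 in Cl10, and -0.93 ± 0.09 between the clones.

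Of the 8 proteases that cut or shed chemokines, 6 were tested in each comparison. DPP4 (CD26), which trims the amino terminus of CXCL10, CXCL11 and other chemokines, was called higher in Cl1. It was counted at 1957 and 1979 in the control, 4284 and 4248 in Cl1, and 3074 and 3013 in Cl10. The groups did not overlap, and the log2 difference was 1.12 ± 0.11 for Cl1 (adjusted p = 1.53e-05) and 0.63 ± 0.08 for Cl10 (adjusted p = 0.000848). No other protease of the list was called in any comparison. Among all genes tested, 7.55% were called in Cl1, 13.4% in Cl10 and 10.8% between the clones.

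The list of NF-kappaB subunits and target genes held 25 genes. The test of Cl1 covered 23 of them and called 1 higher and 7 lower, beside 4.27% and 3.27% of all genes, at a median log2 difference of -0.31. For Cl10 the test covered 24 and called 4 higher and 2 lower, beside 5.98% and 7.45% of all genes. The median there was 0.27. Between the clones, 9 were called higher in Cl10 and 0 lower, beside 4.48% and 6.3% of all genes, with a median of 0.68. CSF2, with a log2 difference of 2.49 in Cl10, had enough counts for the test of Cl10 but not for that of Cl1. The counts of calls are therefore a description. NFKB2, a subunit of the alternative pathway, was counted at 5994 and 6158 in the control, 2362 and 2317 in Cl1, and 3515 and 3650 in Cl10. TNFAIP3, a feedback inhibitor, was counted at 3525 and 2724, 1469 and 1220, and 4241 and 4700, a log2 difference of -1.21 ± 0.14 for Cl1 (adjusted p = 7.97e-05) and of 0.52 ± 0.13 for Cl10 (adjusted p = 0.0179). RELB fell by 1.43 ± 0.13 in Cl1 (adjusted p = 8.37e-06) and fell by 0.40 ± 0.09 in Cl10 (adjusted p = 0.0106). CXCL2 and CXCL3 were lowest in Cl1 as well, by differences lost with DESeq2 as given above. CXCL1, whose printed promoter holds the same kappaB letters, was highest in Cl1. Any part of NF-kappaB in the values of these ligands was not tested.

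All 32 interferon-stimulated genes of the list had enough counts. The Cl1 comparison called 5 higher and 1 lower, and the Cl10 comparison called 6 higher and 2 lower, with medians of 0.35 and 0.40, beside 4.27% and 3.27% of all genes in Cl1 and 5.98% and 7.45% in Cl10. Between the clones, 2 were called higher in Cl10 and 6 lower, beside 4.48% and 6.3% of all genes. MX1, an antiviral GTPase, rose by 0.76 ± 0.12 in Cl1 (adjusted p = 0.000525) and by 1.33 ± 0.08 in Cl10 (adjusted p = 7.32e-05). OASL, an oligoadenylate synthetase-like protein, was counted at 12127 and 13463 in the control, 16922 and 15350 in Cl1, and 3610 and 3392 in Cl10, and fell by 1.86 ± 0.09 in Cl10 (adjusted p = 4.62e-05). IFI27 fell by 1.62 ± 0.13 in Cl1 (adjusted p = 2.75e-06) and fell by 3.84 ± 0.12 in Cl10 (adjusted p = 1.2e-05).

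On GRCh38, CXCL14 is a gene of 4 exons on the minus strand of chromosome 5, between 135570679 and 135579279 (GENCODE 44). It lies inside the span of SLC25A48, a mitochondrial carrier gene on the plus strand, and 108 exon bases of SLC25A48 overlap exons of CXCL14. A further plus-strand gene without a symbol, also counted, shares 95 exon bases with CXCL14. SLC25A48 and the neighbours below were chosen by position after their values were seen. SLC25A48 was counted at 38.9 and 41.9 in the control, 251.0 and 289.3 in Cl1, and 1223 and 1129 in Cl10. That is a log2 difference of 2.74 ± 0.21 for Cl1 (adjusted p = 2.85e-06) and 4.87 ± 0.14 for Cl10 (adjusted p = 8.05e-06), the direction seen in CXCL14. The non-coding gene AC114296.1, also inside SLC25A48, was counted at 7.61 and 2.15, 37.6 and 77.3, and 177.8 and 174.7, with log2 fold changes of 3.46 ± 0.56 (adjusted p = 0.000814) and 5.10 ± 0.37 (adjusted p = 0.000139). The kit named in the labels keeps strand information, whereas the study's methods name a TruSeq RNA kit and do not say that it was stranded. The strand setting of the counting was not given in the sources used here. Reads of CXCL14 and of overlapping genes on the other strand therefore cannot be separated with certainty. CXCL14 had more counts than SLC25A48 by a wide margin in every library.

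TGFBI, an extracellular matrix protein gene downstream of SLC25A48, was counted at 23818 and 24156 in the control, 49701 and 44350 in Cl1, and 68380 and 68809 in Cl10, with log2 fold changes of 0.97 ± 0.13 (adjusted p = 0.000243) and 1.52 ± 0.08 (adjusted p = 6.61e-05). Within 1 Mb on either side of CXCL14, 26 other genes were tested in Cl1, of which 11 passed as higher and 1 as lower, and 25 in Cl10, of which 12 passed as higher and 1 as lower. Over all genes tested, 12.4% passed as higher in Cl1 and 20.6% in Cl10. These neighbours had a median log2 difference of 0.44 in each clone. Measured from the median of its 50 nearest tested genes, CXCL14 stood at 4.60 in Cl1 and 5.85 in Cl10. Read coverage, copy number and chromatin at this locus were not analysed here.

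CXCL8, CXCL1, CXCL3 and CXCL2 lie in this order within one cluster on chromosome 4, from 73740519 to 74099196, and CXCL10 and CXCL11 lie in a second group from 76021118 to 76041415. Neighbours in the first cluster moved in different directions. In Cl1, CXCL1 was higher, CXCL3 and CXCL2 were lower and CXCL8 had a log2 fold change of -0.06. The medians of the 50 nearest genes around these ligands lay between -0.02 and 0.15 against the control.

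Genes with a pattern like that of CXCL14 were ranked by Pearson's r of log2 CPM over the 6 libraries, among 104 genes with a mean CPM of at least 5 and a standard deviation of at least 1. The first were SMAD6 (r = 0.9993), IVL (0.998), HECW2 (0.9973), BMP2 (0.9946) and PSG4 (0.9908). With 3 groups of 2 libraries, r mainly ranks genes by the order and spacing of 3 group means and is given as a description. SMAD6, an inhibitory SMAD, was counted at 748.6 and 767.7 in the control, 2765 and 2943 in Cl1, and 4060 and 4001 in Cl10. IVL (involucrin), a cornified envelope protein of squamous epithelium, was counted at 21.2 and 31.2, 344.9 and 406.4, and 590.5 and 625.7. BMP2, a secreted growth factor, was counted at 756.2 and 756.9, 2631 and 2471, and 3860 and 3863. HECW2, a ubiquitin ligase, differed from the control by 2.82 (Cl1) and 3.14 (Cl10) on the log2 scale, and PSG4, a pregnancy-specific glycoprotein, by 2.46 and 3.49. All 5 stood lowest in the control and highest in Cl10, as CXCL14 did.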

How the data were processed

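Poly(A)-selected RNA of A253 control cells, Cl1 and Cl10 was sequenced as paired-end 150-base reads. Per the study's methods, the authors used HISAT2 for alignment (hg38) and HTSeq for gene counts, while the submitters' processing notes name HISAT2, StringTie and DESeq. Annotation, strand setting and tool versions were not given in the sources used here. The deposited values are raw counts per gene in 6 libraries of 47016495 to 70986593 counts. No column was left out. Libraries with SOX2 guides and their own controls were not used here.

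Counts were tested pairwise (Cl1 against control, Cl10 against control, Cl10 against Cl1, 2 libraries each) with edgeR 4.0.16 in R 4.3.3 (filterByExpr, TMM, quasi-likelihood test) and Benjamini-Hochberg adjustment over all genes tested. A gene passed at adjusted p under 0.05 and was called above a log2 fold change of 1 in size. Normalised counts were computed with TMM over the 6 libraries. The script was tested on simulated data. Named genes were the 10 ligands, the other ligands tested, receptors and proteases called in any comparison, the 5 genes most like CXCL14 by correlation, and the 3 called genes of highest mean count of the other lists. The members and lists were chosen with earlier results of these data known. Locations, exon lengths and transcript windows came from GENCODE 44, which matched 58207 of 58735 genes with 99.9% of counts, and promoters from RefSeq on GRCh38.p14. Alternatives were DESeq2 1.42.0, other scalings and filters, 1 fit over 6 libraries, a replicate block and leaving out each library. The last leaves 1 library in a group, and its adjusted p then holds the spread of the other group only. Between replicates of a group, 23.6% to 58.5% of genes with at least 100 counts differed by more than counting error, so no library was a repeat of another. Deviations of libraries with the same replicate number correlated at -0.068, -0.018 and 0.01, so numbers were not treated as pairs.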

Additional observations from a re-analysis of the deposited data

Results flagged for a closer look

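Differences between the clones, with the Cl10 against Cl1 contrast itself tested, drew attention for 16 ligands, each given as the log2 difference of Cl10 minus Cl1. Among the 10 ligands of the report, CXCL14 (1.07), CXCL2 (0.86), CXCL3 (0.63), CXCL8 (1.22), CXCL10 (2.92) and CXCL11 (3.08) were higher in Cl10, and CXCL1 (-0.48) and CXCL16 (-0.18) were lower. Among the other ligands, CCL2 (5.77) was higher in Cl10, and CCL5 (-1.39), CCL17 (-1.74), CCL22 (-1.39), CCL26 (-0.70), XCL1 (-0.76), XCL2 (-0.89) and CX3CL1 (-2.17) were lower. CXCL10, CXCL11 and CCL2 had enough counts for this test only through the Cl10 libraries, and CCL17 and CX3CL1 only through the Cl1 libraries. For these genes the difference is a description. The difference for CCL26 was lost with DESeq2 (adjusted p = 0.0587) and without Cl10 replicate 2 (0.1), for XCL1 with DESeq2 (0.0632) and without Cl10 replicate 2 (0.0622), for CX3CL1 without Cl1 replicate 1 (0.0769), and for XCL2 with DESeq2 (0.178) and without Cl1 replicate 1 (0.109), Cl10 replicate 1 (0.112) or Cl10 replicate 2 (0.0979), with edgeR unless DESeq2 is named, and those of CXCL2, CXCL3, CXCL11 and CXCL16 were lost as given above. Without single libraries, CXCL10 ranged from 2.33 to 4.47, and CXCL14 was 0.91 without Cl1 replicate 1 and 0.99 without Cl10 replicate 1. Over all 19818 genes tested between the clones, 49% passed, so that a difference between Cl10 and Cl1 was common among all genes. Each clone is a single clone, and a difference between them cannot be told apart from a difference between their founder cells.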

How the results depend on the processing

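The counts of genes past both limits among the 10 ligands, CXCL14 included as a description (3 in Cl1, 3 in Cl10, 4 between the clones), became 5, 5 and 8 with no fold-change threshold, since genes with smaller changes then count. Under a filter of 10 or more counts per library, the count between the clones was 2, since CXCL10 and CXCL11 were then not tested. With libraries left out in turn, the counts were the same or lower in each comparison. Such fits leave 1 library in a group, so their counts are not given here. With the replicate block the counts were 3, 3 and 4, and under the block CXCL16 no longer passed between the clones (adjusted p = 0.0519) and CXCR3 passed in Cl10 (0.0331). Directions turned for values of Cl1 against the control that passed in no setting. With library size only, CXCL16 was -0.06 and CCL22 was -0.00, and with no filter CXCL16 was -0.01. Against the nearest genes, CCL5 was 0.09 and CXCR2 -0.07. With libraries left out, CXCL8 ranged from -0.14 to 0.03, CXCL16 from -0.03 to 0.05, CCL17 from -0.73 to 0.14, XCL1 from -0.26 to 0.24, CXCR2 from -0.75 to 0.54 and CXCR3 from -0.23 to 0.40. The cause was not tested. CXCL11 between the clones has no finite value without Cl1 replicate 1, since the other Cl1 library held 0 counts. Of 855 values of named genes under an alternative, 757 kept direction and side of the threshold and 65 no longer passed, 17 of them with DESeq2. Counts under about 100 per library limit CXCL2, CXCL3, CXCL10, CXCL11 and most receptors.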
